A study of Arabidopsis thaliana with 6 samples.

Results

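Calmodulin-like (CML) genes of the Arabidopsis thaliana root were followed across wild-type roots, roots that overexpressed RXR1 and roots of an rxr1 mutant. The genes were chosen by name: every locus whose symbol or synonym is CML, CAM, CPK, CBL or CIPK followed by a number, with 1 probe set per locus and without CML38. Of the 13286 loci with a named probe set, 7 met this rule: CML23 (AT1G66400), CML30 (AT2G15680), CML37 (AT5G42380), CML41 (AT3G50770), CML42 (AT4G20780), CML43 (AT5G44460) and AT1G76640, whose listed synonym is CML39. The gene list of the TAIR10.1 assembly holds 91 loci with such a name, of which 83 had no named probe set and were not analysed here. These 83 include all 60 loci of the calcium-dependent protein kinases (CPK) and the CBL-interacting kinases (CIPK), all 10 calcineurin B-like (CBL) sensors and 13 of the 21 calmodulin and calmodulin-like loci. The values below therefore describe calmodulin-like sensors and no kinase. The synonym CML39 is also listed for CML37, so AT1G76640 is called by its locus.

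Root RNA of 7-day-old seedlings, grown on vertical plates of solid MS medium, was hybridised to 6 Affymetrix ATH1 arrays, 2 for each genotype. The labels named the genotypes WT, AtRXR1 overexpression and AtRXR1 mutant, and gave neither the promoter of the transgene, the mutant allele nor the number of lines. All groups shared age, tissue and growth conditions, and no label said whether the replicates came from separate plants or plates. RXR1, a member of the DUF506 family, is known to hold back the elongation of root hairs. It had no named probe set, so neither its overexpression nor its loss was checked.

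Calcium acts in plant cells as a second messenger: touch, wounding, cold, salt and microbial signals raise its cytosolic level for a short time. Sensor proteins bind it through EF-hand loops and change shape. Calmodulins and calmodulin-like proteins have no enzyme activity and act by binding other proteins, whereas CBL sensors act through CIPK kinases and CPK proteins carry sensor and kinase in 1 chain. In roots, calcium gradients accompany the tip growth of root hairs. Transcripts of several CML genes, CML37, CML38 and CML39 among them, are known to rise after wounding, touch or other stress.

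Values are log2 of the authors' RMA signal, in which a difference of 1 is a 2-fold change. A probe set was called at a Benjamini-Hochberg adjusted p under 0.05 in limma, fitted over 22746 probe sets. The roots were checked against markers: PYK10, a beta-glucosidase of root endoplasmic reticulum bodies and the 1 root marker of 5 with a named probe set, lay between 13.32 and 13.67 on the 6 arrays, and the pollen gene AT5G45880 between 4.55 and 4.79. The photosystem I subunit gene PSAN, the 1 green shoot marker of 8 measured, was at 7.81 and 7.65 in wild type, at 7.04 and 6.97 in the overexpressor and at 7.37 and 7.61 in the mutant. It lay above the median signal of every array (6.76 to 6.80). Its overexpressor minus wild type was -0.72 ± 0.112 (-0.80 without wild-type replicate 2), and overexpressor minus mutant -0.48 ± 0.112. The limma adjusted p was 0.0895 and 0.492. Root hair markers, of which 4 of 9 were measured, all had negative differences in the overexpressor against wild type. Their median was -0.80 (-0.78 without wild-type replicate 2). Of the 4, 2 were called, the wall enzyme genes XTH26 and GH9C1, beside 0.101% of all probe sets. In the mutant against wild type all 4 were lower too, with a median of -0.24 and 0 called. XTH26 was at -0.36 and GH9C1 at -0.30 there (limma adjusted p = 0.524 for each). Without wild-type replicate 2 the median was -0.21 (1 higher, 3 lower), and these were -0.38 and -0.24. Overexpressor minus mutant had a median of -0.64 (4 lower, 0 called). The part of green tissue or of root hair cells in the values below was not tested, and in bulk roots fewer cells of a type cannot be told apart from less RNA per cell. Wild-type replicate 2 stood apart, with correlations to the other arrays of 0.97 to 0.983 in the authors' deposited table, against 0.994 to 0.998 among the other 5. Differences against wild type that changed without it are given both ways below. The counts of the 7 genes at an unadjusted p under 0.05 rest on all 6 arrays.

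No calmodulin-like gene was called between any pair of genotypes by limma. In the overexpressor against wild type 0 of 7 were called, where 0.101% of all probe sets were, and 0 of 7 had an unadjusted p under 0.05, against 11.8% of all. In the mutant against wild type 0 of 7 were called (0.0044% of all) and 1 of 7 had an unadjusted p under 0.05 (9.33% of all). Between overexpressor and mutant 0 of 7 were called (0.0132% of all), and 0 of 7 had an unadjusted p under 0.05 (5.05% of all). The median differences over the 7 genes were -0.023, -0.045 and 0.051 in these comparisons, beside 0.0057, -0.0051 and 0.0035 over all probe sets. Without wild-type replicate 2 the medians against wild type changed sign, to 0.089 for the overexpressor and 0.11 for the mutant, so they show no direction.

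The 5 genes other than CML37 and AT1G76640 lay above the lower quartile of signals on every array. All 15 of their differences (5 genes in 3 comparisons) had a 95% interval of the signal difference inside 2-fold in either direction. CML37 and AT1G76640 lay below that quartile on all 6 arrays, and whether their signal lay above background was not tested. Their 6 intervals therefore set no bound on a change in the transcript. Only 1 interval excluded 0, that of CML37 in the mutant against wild type.

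**Figure D1:**
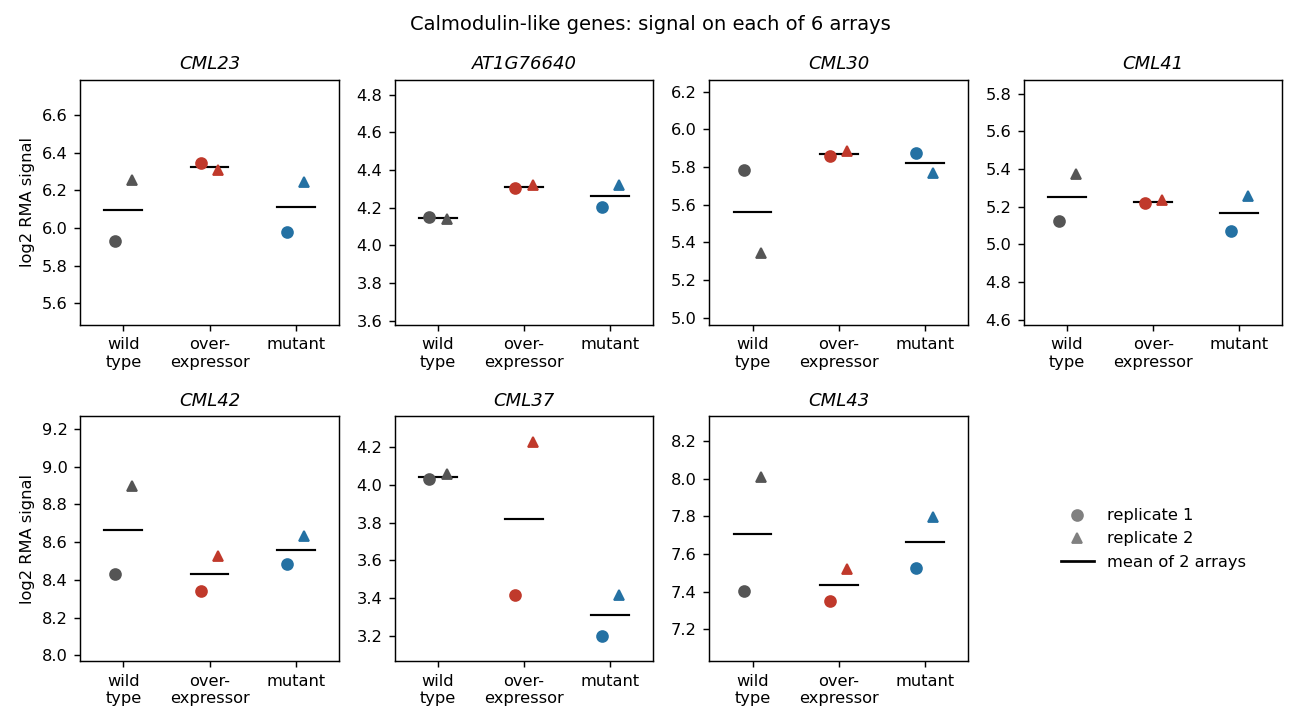
Log2 RMA signal of the 7 calmodulin-like genes on each of the 6 arrays, by genotype; circles are replicate 1, triangles replicate 2 and bars the mean of 2 arrays, and every panel spans the same number of log2 units. Both CML37 values in the mutant (3.20 and 3.42) lie below both in wild type (4.03 and 4.06), while the overexpressor values (3.41 and 4.23) lie on either side of wild type.

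CML37, a wound-responsive sensor known as a positive regulator of jasmonate defence, showed the widest spread of the 7 genes. Its range over all 6 arrays was 1.03, and 1.48% of all probe sets had a wider one. The log2 signal of CML37 was 4.03 and 4.06 in wild type, 3.41 and 4.23 in the overexpressor, and 3.20 and 3.42 in the mutant. Both mutant arrays were below both wild-type arrays, and the overexpressor arrays overlapped those of both other genotypes. Mutant minus wild type was -0.74 ± 0.235 (SE, n = 2 per group, limma adjusted p = 0.524), with a 95% interval from -1.29 to -0.18. The value was -0.72 without wild-type replicate 2 and ran from -0.84 to -0.63 over the fits that left out each array in turn. Its sign could not change in these fits, because the arrays of the 2 genotypes did not overlap. That was so for 38.1% of all probe sets.

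Overexpressor minus wild type was -0.22 ± 0.235 for CML37 (limma adjusted p = 0.738). It was -0.21 without wild-type replicate 2, 0.18 without overexpressor replicate 1 and -0.63 without overexpressor replicate 2, so the sign depended on which of these arrays was kept. Overexpressor minus mutant was 0.51 ± 0.235 (limma adjusted p = 0.999), with an interval from -0.041 to 1.06. Without overexpressor replicate 2 it was 0.11, and without overexpressor replicate 1 it was 0.92. All 6 signals of CML37 lay below the lower quartile of their array, and none was shown to lie above background. Differences between signals this dim may understate a change in the transcript.

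AT1G76640, a close relative of CML37 that is known from work on seed and early seedling development, was as dim and varied least. Its log2 signal was 4.15 and 4.14 in wild type, 4.31 and 4.32 in the overexpressor, and 4.20 and 4.32 in the mutant. All 4 arrays of the lines lay above both wild-type arrays, but by little: overexpressor minus wild type was 0.17 ± 0.0865 (limma adjusted p = 0.488) and mutant minus wild type 0.12 ± 0.0865 (limma adjusted p = 0.657). Without wild-type replicate 2 these were 0.16 and 0.11. The range over all 6 arrays was 0.18, and 83.6% of all probe sets had a wider one. All 6 signals were below the lower quartile of their array here too, and none was shown to lie above background.

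AT1G76640 lies next to CML38 (AT1G76650) in the gene table. CML38, left out by the rule, was at 5.37 and 5.59 in wild type, 5.53 and 6.42 in the overexpressor, and 4.05 and 4.79 in the mutant. Both its mutant arrays were below its other 4 arrays, an order that the neighbouring AT1G76640 did not share.

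CML42 and CML43 are close relatives of each other. CML42 is known to affect trichome branching and the response to insect feeding, and CML43 is known from root tips and from immune responses. The signal of CML42 was 8.43 and 8.90 in wild type, 8.34 and 8.53 in the overexpressor, and 8.48 and 8.63 in the mutant. That of CML43 was 7.40 and 8.01 in wild type, 7.35 and 7.52 in the overexpressor, and 7.53 and 7.80 in the mutant. Wild-type replicate 2 was the highest array for both genes, and wild-type replicate 1 was among the 2 lowest.

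Overexpressor minus wild type was -0.23 ± 0.159 for CML42 (limma adjusted p = 0.601). For CML43 it was -0.27 ± 0.197 (limma adjusted p = 0.619). Without wild-type replicate 2 these differences were 0.0021 and 0.031. Without wild-type replicate 1, where wild-type replicate 2 was the only control, they were -0.46 and -0.57 and both were called, with limma adjusted p = 0.0363 and 0.0289. In that fit 16.7% of all probe sets were called.

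Mutant minus wild type was -0.11 ± 0.159 for CML42 and -0.045 ± 0.197 for CML43 (limma adjusted p = 0.841 and 0.956). Without wild-type replicate 2 these were 0.12 and 0.26. The comparison that uses no wild-type mean, overexpressor minus mutant, gave -0.12 ± 0.159 for CML42 and -0.23 ± 0.197 for CML43 (limma adjusted p = 0.999 for each). Its SE and p-values still drew on the spread of the wild-type arrays. With only the 4 arrays compared the limma adjusted p was 0.73 for CML42 and 0.543 for CML43. The overexpressor and mutant arrays of CML43 did not overlap, as was the case for 40.6% of all probe sets. Leaving out an array could therefore not change the sign of its difference, which ran from -0.36 to -0.091.

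CML30, a sensor reported in mitochondria, had the largest positive differences of the 7 genes in both lines against wild type. Its signal was 5.78 and 5.34 in wild type, 5.86 and 5.88 in the overexpressor, and 5.87 and 5.77 in the mutant. Wild-type replicate 2 alone was low, by 0.49 below the mean of the other 5 arrays, and those 5 lay within 5.77 to 5.88. Overexpressor minus wild type was 0.31 ± 0.144 (limma adjusted p = 0.456) and mutant minus wild type 0.26 ± 0.144 (limma adjusted p = 0.582). Without wild-type replicate 2 they were 0.089 and 0.037. With that array as the only control they were 0.53 and 0.48, and both were called, with limma adjusted p = 0.0132 and 0.0235. In the latter fit 12.1% of all probe sets were called for the mutant.

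CML23, which acts with its relative CML24 on nitric oxide levels and flowering time, was at 5.93 and 6.26 in wild type, 6.34 and 6.31 in the overexpressor, and 5.98 and 6.24 in the mutant. Both overexpressor arrays were above the other 4. Overexpressor minus wild type was 0.23 ± 0.136 (limma adjusted p = 0.537), and overexpressor minus mutant 0.21 ± 0.136 (limma adjusted p = 0.999). The first of these was 0.39 without wild-type replicate 2 and 0.070 without wild-type replicate 1. Mutant minus wild type was 0.019 ± 0.136, with an interval from -0.30 to 0.34, and 0.18 without wild-type replicate 2. CML23 lies next to the calmodulin gene CAM4 in the gene table, and neither CAM4 nor CML24 was analysed here.

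CML41, a sensor known to localise at plasmodesmata and to act on callose there, was at 5.12 and 5.38 in wild type, 5.22 and 5.23 in the overexpressor, and 5.07 and 5.26 in the mutant. The 3 genotypes overlapped. Its differences were -0.023 ± 0.115, -0.085 ± 0.115 and 0.062 ± 0.115 for overexpressor against wild type, mutant against wild type and overexpressor against mutant (limma adjusted p = 0.96, 0.822 and 0.999). Both differences against wild type changed sign without wild-type replicate 2, to 0.10 and 0.041. The interval of the mutant against wild type ran from -0.36 to 0.19.

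**Figure D2:**
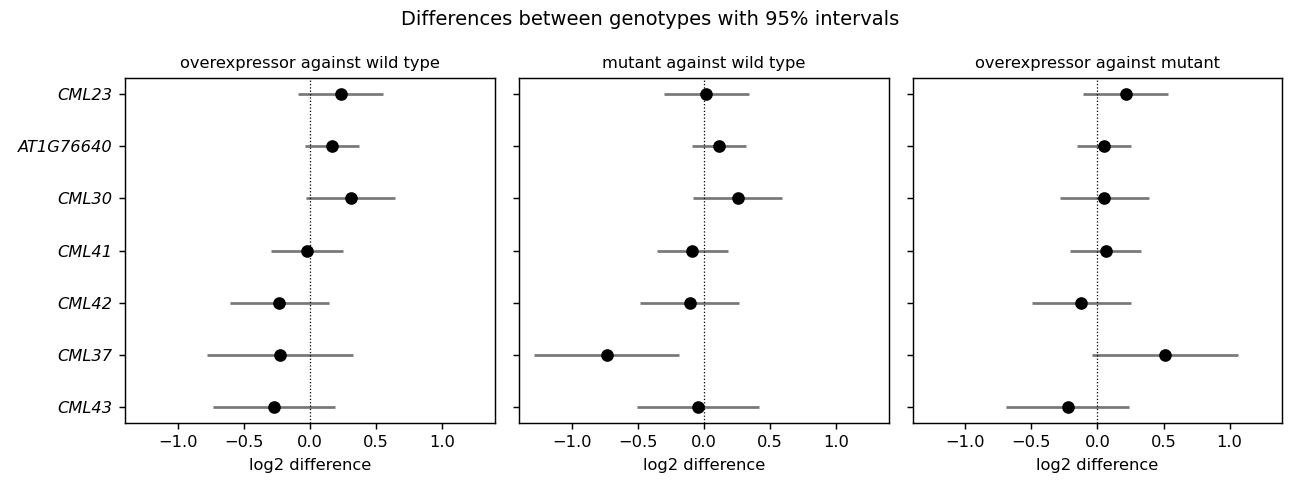
Log2 differences between genotypes for each calmodulin-like gene in 3 comparisons, first genotype named minus the second; points are limma estimates and lines their 95% intervals. Every interval crosses 0 except that of CML37 in the mutant against wild type (-1.29 to -0.18), which did not pass after adjustment.

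The 7 genes did not share 1 order of the genotypes. The overexpressor had the highest mean for CML23, AT1G76640 and CML30, and wild type had it for CML37, CML41, CML42 and CML43. Of the 14 pairs of genotypes that neighbour each other in these orders, 11 had overlapping arrays. The 3 that did not were overexpressor over mutant for CML23, mutant over wild type for AT1G76640 and mutant over overexpressor for CML43. Arrays did not overlap for 3 of 7 genes in the overexpressor against wild type (41.4% of all probe sets), for 2 of 7 in the mutant against wild type (38.1%) and for 2 of 7 between the lines (40.6%). These shares are near those of all probe sets.

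Single arrays differed within genotypes. Over the 7 genes the root mean square of the replicate SD was 0.26 for wild type, 0.228 for the overexpressor and 0.139 for the mutant, beside 0.191, 0.101 and 0.114 over all probe sets. In the overexpressor CML37 had an SD of 0.574, and that of the other 6 genes ran from 0.0098 to 0.134. Wild-type replicate 2 was above the mean of the other arrays for 5 of 7 genes, with a median of 0.19, while the median over all probe sets was -0.017. In mutant replicate 1 only 1 of 7 was above, and in mutant replicate 2 6 of 7 were.

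Genes known to be induced within minutes by touch, wounding or cold had, in their median, the same highest and lowest array as CML37. Of 22 such genes listed, none of them a member, 9 had a named probe set. Against the mean of the other 5 arrays their median was 0.35 and 0.67 in wild type, 0.031 and 0.95 in the overexpressor, and -1.34 and -0.37 in the mutant. The deviations of CML37 were 0.37 and 0.40, -0.37 and 0.60, and -0.63 and -0.37. For CML37 and for this median, overexpressor replicate 2 was the highest array and mutant replicate 1 the lowest. Singly, 5 of the 9 had both. AT2G25735 and AR781 shared only the lowest array, and AT1G19020 and WRKY53 shared neither. In the mutant against wild type all 9 had negative differences, with a median of -1.04, 0 called and 9 with an unadjusted p under 0.05 (4.33% of all probe sets were lower at that p). The median was -1.17 without wild-type replicate 2. AT2G25735 was at -1.45 ± 0.338 and AT4G29780 at -1.42 ± 0.422 there (limma adjusted p = 0.524 for each), and without that array at -1.35 and -1.42. In the overexpressor against wild type 5 were higher and 4 lower (median 0.10, 0 called), with AT4G27280 at 0.54 ± 0.207 and AT1G19020 at -0.71 ± 0.125 (limma adjusted p = 0.388 and 0.125). The median was 0.24 without wild-type replicate 2, and these were 0.41 and -0.59. Between the lines the zinc-finger repressor gene STZ was at 1.72 ± 0.426 and AT4G29780 at 1.71 ± 0.422 (limma adjusted p = 0.528 for each). There 8 of 9 were higher, with 0 called and 7 of 9 at an unadjusted p under 0.05, beside 5.05% of all probe sets. The part of handling or stress in the CML37 values was not tested, and earlier results of these data were known when these genes were listed. None of the other 6 calmodulin-like genes had both this highest and this lowest array. CML38, left out by the rule, did have both, at 6.42 and 4.05.

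**Figure D3:**
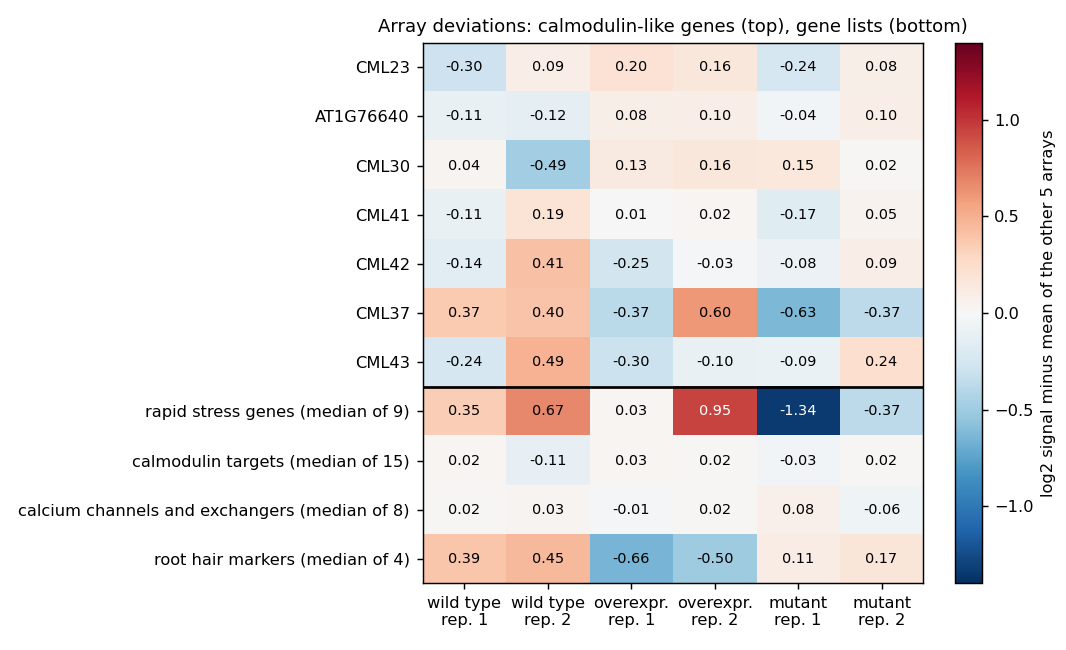
Deviation of each array from the mean of the other 5 arrays on the log2 scale, for the 7 calmodulin-like genes (top rows) and for the median of 4 gene lists (bottom rows); red is above and blue below. CML37 and the median of the rapid stress genes have their highest value in overexpressor replicate 2 (0.60 and 0.95) and their lowest in mutant replicate 1 (-0.63 and -1.34), and CML30 is low in wild-type replicate 2 alone (-0.49).

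Of the other calcium signalling genes listed, none with a named probe set was called by limma. Calmodulin-binding proteins were listed as CAMTA transcription factors, CBP60 proteins and the IQD scaffold proteins, and all 15 with a named probe set, of 38 listed, were IQD genes. Of the 15, 1 had an unadjusted p under 0.05 in each line against wild type and 0 between the lines. Over all probe sets the shares were 11.8% for the overexpressor, 9.33% for the mutant and 5.05% between the lines. Their medians were 0.080 in the overexpressor against wild type (9 higher, 6 lower), 0.073 in the mutant against wild type (9 higher, 6 lower) and 0.010 between the lines (12 higher, 3 lower). This list was low in wild-type replicate 2, at -0.11 against the other arrays, and without that array the medians against wild type changed sign, to -0.0034 (7 higher, 8 lower) and -0.011 (6 higher, 9 lower). That 1 was IQD27, at -0.27 ± 0.102 for the overexpressor and likewise -0.27 ± 0.102 for the mutant (limma adjusted p = 0.384 and 0.525). Both differences were against the same wild-type arrays, and each was -0.31 without wild-type replicate 2. The signals of IQD27, from 3.52 to 3.94, lay below the lower quartile of every array (4.56 to 4.66). None was shown to lie above background.

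The calcium-permeable channels and exchangers with a named probe set were 8 of 51 listed, all of them glutamate receptor-like (GLR) channel genes. Of these 0 were called in each comparison by limma, and 0 had an unadjusted p under 0.05. Over all probe sets 11.8%, 9.33% and 5.05% had such a p for the overexpressor, for the mutant and between the lines. Their differences ran from -0.17 to 0.077 in the overexpressor against wild type and from -0.22 to 0.20 in the mutant against wild type. Between the lines they ran from -0.18 to 0.17. GLR2.7, GLR2.8 and GLR2.9, with signals up to 4.27, lay below the lower quartile of every array. None of these signals was shown to lie above background, and their differences set no bound on a change in the transcript. The ranges against wild type without wild-type replicate 2 were -0.16 to 0.24 and -0.21 to 0.24. The listed calcium pumps (14 loci), annexins (8 loci) and kinase targets such as NADPH oxidases and potassium channels (25 loci) had 0 named probe sets and were not analysed here.

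**Figure D4:**
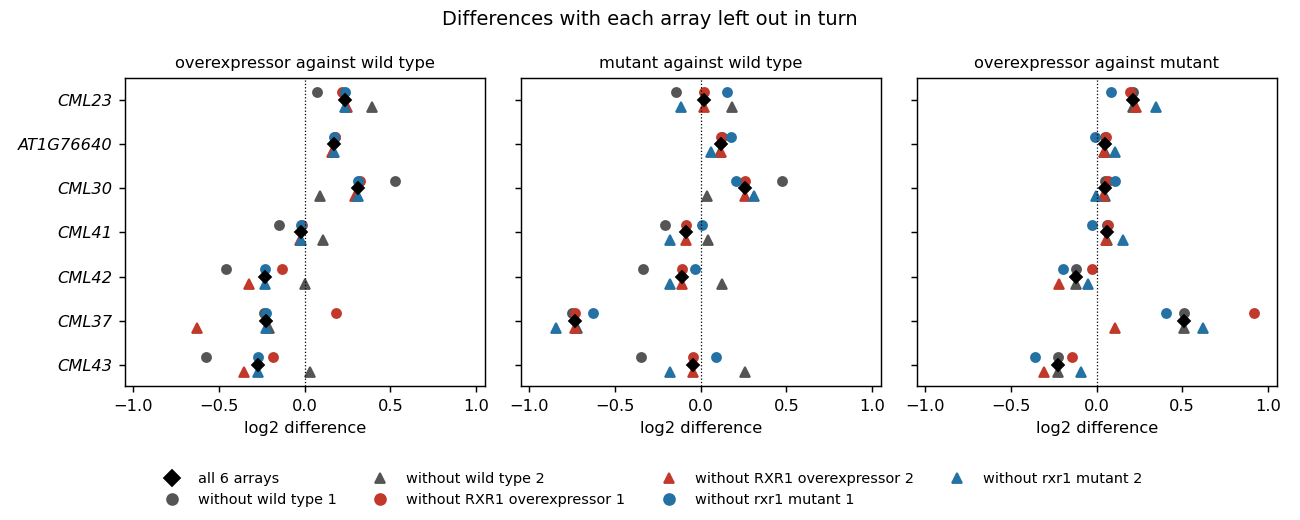
Log2 differences of each calmodulin-like gene in 3 comparisons with all 6 arrays (black diamonds) and with each array left out in turn (grey for wild type, red for overexpressor, blue for mutant; circles leave out replicate 1, triangles replicate 2). CML42 against wild type in the overexpressor moves from -0.46 to 0.0021 with the wild-type array that is left out. CML37 in the mutant against wild type runs from -0.84 to -0.63, and its sign could not change because its arrays do not overlap.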

How the data were processed

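The authors deposited RMA signals (unit intensity, linear scale) for 22810 probe sets. RMA, which normalizes arrays jointly, and Affymetrix Expression Console are named per the submitters' processing notes; their versions are not given in the sources used here. A deposited table held a correlation score for each pair of arrays. Log2 was taken with no pseudocount, and 64 controls were left out. The platform annotation named 1 gene for 13513 probe sets, and 13436 matched a TAIR10.1 locus; that gene table served only for names and neighbours. Each of the 7 genes had 1 probe set.

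The comparisons used limma 3.58.1 (R 4.3.3; lmFit and eBayes, a mean for each genotype, 6 arrays in 1 fit, degrees of freedom 3 residual and 4.25 prior, two-sided), adjusted over 22746 probe sets per comparison, and were first tested on simulated data. With 2 arrays per group, whose independence the labels do not state, p-values cover array spread only, possibly technical; an exact permutation test could not go below p = 0.333. No detection calls were used.

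All 7 genes are named; of other genes, those called and, per list and comparison, up to 2 with the largest differences at an unadjusted p under 0.05 without overlap of arrays. Members and lists were chosen with earlier results of these data known. Alternatives left out each array, added a replicate block, used only the 4 arrays compared, centred medians, filtered dim probe sets, added an intensity trend, took the second deposited copy or averaged a locus' probe sets.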

Additional observations from a re-analysis of the deposited data

How the results depend on the processing

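No calmodulin-like gene was called under the 7 alternatives that left out no array of the groups compared. Only median centring altered the differences, and all of them kept their sign under it. The other settings left each difference as it was, so its sign could not change there. With each array left out in turn, 0 to 3 of the 7 were called in the overexpressor against wild type, 0 to 1 in the mutant against wild type and 0 between the lines; the 3 and the 1 came without wild-type replicate 1. The median over the 7 ran from -0.15 to 0.18 for the overexpressor against wild type, the highest without overexpressor replicate 1, from -0.21 to 0.11 for the mutant against wild type and from -0.0081 to 0.11 between the lines. Leaving out an array cannot change the sign where the arrays of the genotypes compared do not overlap. Of the 21 differences, 10 kept their sign without any single array, among them all those without overlap (3, 2 and 2 of 7 per comparison). Those that changed sign ran, for the overexpressor against wild type, from -0.15 to 0.10 for CML41, -0.46 to 0.0021 for CML42, -0.57 to 0.031 for CML43 and -0.63 to 0.18 for CML37. For the mutant against wild type they ran from -0.14 to 0.18 for CML23, -0.21 to 0.041 for CML41, -0.34 to 0.12 for CML42 and -0.35 to 0.26 for CML43. Between the lines they ran from -0.0081 to 0.11 for AT1G76640, -0.030 to 0.15 for CML41 and -0.0020 to 0.10 for CML30. The cause was not tested. Deviations of same-numbered arrays correlated at 0.0533, 0.316 and 0.125 for the 3 pairs of genotypes. These values do not settle whether the numbers mark pairs, and the main fit did not take the numbers as pairs. CML37, CML41, CML42 and CML43 (4 of 7) were higher in replicate 2 than in replicate 1 in all 3 genotypes. The share of all probe sets with this order was not computed, so it is not read as a trait of these genes. With the replicate block, 0 of 7 were called in each comparison, with CML37 at -0.74 in the mutant (limma adjusted p = 0.249). Over all probe sets, calls for the overexpressor went from 23 to 167 with the replicate block, to 0 with only the 4 arrays compared, to 38 with the trend and to between 0 and 3790 with an array left out. For the mutant 1 call became 2 with the block, 0 with 4 arrays and 0 to 2743 with an array left out. Between the lines 3 calls became 30 with the block, 58 with 4 arrays, 1 with median centring and 0 to 58 with an array left out. CML37 and AT1G76640 fell out of the filter on dim probe sets, so that setting gave no value for them.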
